A study of Mus musculus with 6 samples.

Results

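The 9 genes described here encode integrin chains, a selectin ligand and a hyaluronan receptor, the surface proteins by which blood cells hold to bone marrow stroma and to vessel walls. They were chosen by gene symbol (Itga4, Itga5, Itga6, Itgal, Itgb1, Itgb2, Itgb7, Cd44 and Selplg), and each symbol had 1 row, so that they make up 9 of the 25965 rows of the count table. RNA of 6 BCR-ABL positive mouse lines was sequenced, BCR-ABL being the oncogenic tyrosine kinase of the Philadelphia chromosome. The 3 lines KO1 to KO3 are labelled Cdk6 knock out and were made with a Cas9-GFP plasmid carrying guides against Cdk6, whose product is a cell cycle kinase. The 3 lines WT1 to WT3 are labelled Cdk6 wild type and belong with the control plasmid, the same Cas9-GFP vector without those guides. Where a sentence gives 3 values for a group, they are those of lines 1, 2 and 3. Per the labels' protocols, GFP-positive cells were plated as single cells after transfection and loss of CDK6 protein in the knockout was checked by Western blot, so a line stands for 1 clone. No source used here gives the strain, sex or age of the source mice or the origin of the parent lines.

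Integrins are pairs of an alpha and a beta chain, and neither chain reaches the surface on its own. The beta-1 chain (Itgb1) pairs with the alpha-4 chain (Itga4), which binds the vascular adhesion molecule VCAM and fibronectin, with the alpha-5 chain (Itga5), which binds fibronectin, and with the alpha-6 chain (Itga6), which binds laminin. The leukocyte chain beta-2 (Itgb2) pairs with alpha-L (Itgal) to form LFA, the receptor for ICAM proteins, and beta-7 (Itgb7) pairs with alpha-4 to form a receptor for the gut vessel adhesion molecule MAdCAM. CD44 binds hyaluronan, and Selplg encodes PSGL, the mucin that binds selectins once it carries the right sugars.

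Total counts ran from 17859519 to 20415572 in the KO libraries and from 19060127 to 24108563 in the WT libraries. Levels are given as CPM, counts per 1000000 of a library total scaled by TMM, a factor that evens out libraries of different composition, and 3 counts corresponded to between 0.125 and 0.165 CPM. Library KO2 stood apart, correlating with the others at 0.845 to 0.921 across tested genes where the other 5 correlated at 0.939 to 0.990, and WT2 was the library most like it. Cdk6 itself lay at 41.3, 75.0 and 39.0 CPM in the KO lines, against 39.7, 45.6 and 55.9 CPM in the WT lines (log2 fold change 0.14 ± 0.29 SE, edgeR adjusted p = 0.900), so the groups overlapped in its RNA, and KO and WT name the libraries as labelled. All 14 markers of early B cells reached 1 CPM in at least 1 library, with a summed level of 4981 to 5770 CPM in KO and 5020 to 5272 CPM in WT. Of the T cell markers Cd3e, Cd4, Cd8a and Thy1 were at 0 in every library, and so were the myeloid markers Elane, Ly6g, S100a8, S100a9 and Emr1 (now Adgre1) and the NK cell markers Ncr1, Klrk1 and Gzma. The summed level of the 9 myeloid markers was 0.666 to 30.4 CPM in KO and 2.08 to 6.72 CPM in WT, its KO maximum being KO1 through Itgam, and that of the 7 T cell markers with a row was 0.461 to 81.05 CPM in KO and 64.9 to 67.5 CPM in WT, nearly all of it Lck. The 4 NK cell markers summed to 9.88 to 80.35 CPM in KO and 14.0 to 21.99 CPM in WT, all of it Klrb1c. The 5 megakaryocyte markers summed to 1.13 to 30.3 CPM in KO and 1.88 to 10.9 CPM in WT. Both sums were highest in KO2, where Itgb3 alone gave 21.8 CPM of the megakaryocyte sum. Markers of erythroid, stromal and endothelial cells stayed under 1 CPM in sum in every library. The part of these cell types, and of whatever sets KO2 apart, in the results was not tested. In bulk RNA, fewer cells that express a gene and less RNA per cell cannot be told apart.

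Of the 9 genes, 7 were well expressed in every line, and 2, Itgb7 and Itga5, lay at 3.71 CPM or less in every line. Divided by the length of their exons, so that genes can be set beside each other, the levels over the 6 libraries ordered the genes from Itgb1 down to Itga5. Itgb1 had the highest median, 73.3 CPM per kb (51.5 to 91.5), and lay above Itgal in 6 of 6 libraries. Itgal had a median of 54.4 CPM per kb (39.1 to 60.4) and lay above Selplg in 5 of 6 libraries, the exception being KO2. Selplg had a median of 35.5 CPM per kb (32.6 to 58.4), and its range stood clear of that of Itgb2. Itgb2, at 30.2 CPM per kb (24.7 to 32.2), and Itga4, at 25.1 CPM per kb (19.4 to 66.4), were not told apart, Itgb2 being the higher in 4 of 6 libraries. Cd44 at 16.7 CPM per kb (12.7 to 18.8) and Itga6 at 9.10 CPM per kb (5.51 to 11.4) followed in separate ranges. Itgb7 at 0.742 CPM per kb and Itga5 at 0.158 CPM per kb came last, with overlapping ranges, 0 to 0.893 and 0.0104 to 0.752 CPM per kb. With the longest transcript in place of all exons Itga4 lay above Itgb2 in all but 1 library and Itga6 above Cd44 in 2 of 6. Itgb1 then lay above Itgal in 5 of 6 libraries and Itgal above Selplg in 4 of 6. The median of Selplg was then 65.5 CPM per kb and that of Itga6 19.1 CPM per kb, so both levels and order depend on the length used.

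**Figure D1:**
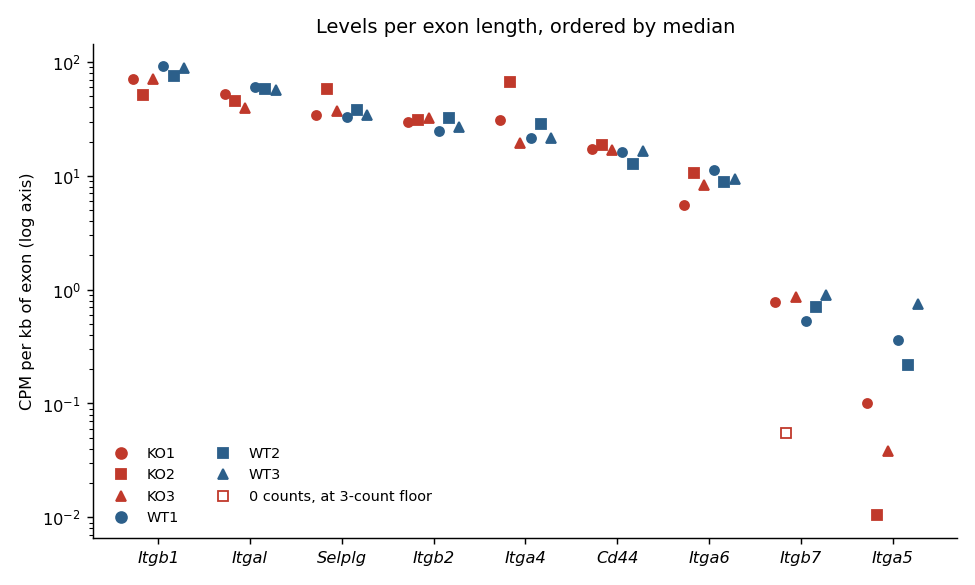
Level of each gene in each library as TMM-scaled CPM per kb of exon, on a log axis, with genes ordered by their median over 6 libraries (red KO, blue WT; circle, square and triangle are replicates 1, 2 and 3). The 7 genes to the left lie between 5.51 and 91.5 CPM per kb, and Itgb7 and Itga5 lie under 1, with the open square marking Itgb7 in KO2, which had 0 counts and is drawn at the level of 3 counts.

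The promoters of 5 of the 9 genes are in the RefSeq promoter table of build GRCm38.p6 (Itga4, Itga5, Itgb1, Itgb7 and Cd44), each as 250 bases before and 50 bases from a transcript start. Those of Itga5, Itgb1 and Cd44 are shown because the KO and WT libraries of these genes did not overlap, and that of Itga4 because its transcript was far higher in KO2 than in any other line. Capitals mark matches to 8 motifs searched on both strands: GGGCGG, the GC box of SP factors, TGTGGT for RUNX, CGGAAG for ETS factors, TGANTCA for AP-1, TTCNNNGAA for STAT factors, TTTNNCGC for E2F, CACGTG, the E-box of MYC, and TATAAA, the TATA box.
Itga4, chr2:79255176-79255475, plus strand.
Itga4: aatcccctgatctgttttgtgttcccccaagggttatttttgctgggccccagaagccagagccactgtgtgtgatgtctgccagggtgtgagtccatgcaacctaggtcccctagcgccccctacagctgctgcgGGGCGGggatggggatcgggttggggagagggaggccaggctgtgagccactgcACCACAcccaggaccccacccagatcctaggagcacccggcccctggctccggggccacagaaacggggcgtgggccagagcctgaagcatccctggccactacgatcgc
Itga5, chr15:103366742-103367041, minus strand.
Itga5: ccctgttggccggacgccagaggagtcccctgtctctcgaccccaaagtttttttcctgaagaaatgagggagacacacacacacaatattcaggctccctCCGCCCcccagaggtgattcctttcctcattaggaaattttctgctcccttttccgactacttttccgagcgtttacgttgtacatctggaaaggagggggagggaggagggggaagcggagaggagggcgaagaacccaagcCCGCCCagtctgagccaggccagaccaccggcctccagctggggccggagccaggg
Itgb1, chr8:128685404-128685703, plus strand.
Itgb1: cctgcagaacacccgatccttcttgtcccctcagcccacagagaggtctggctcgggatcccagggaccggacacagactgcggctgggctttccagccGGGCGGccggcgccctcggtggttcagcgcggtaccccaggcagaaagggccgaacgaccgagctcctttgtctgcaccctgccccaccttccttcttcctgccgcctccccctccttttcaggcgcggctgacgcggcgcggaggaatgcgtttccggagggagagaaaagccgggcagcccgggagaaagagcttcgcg
Cd44, chr2:102901616-102901915, minus strand.
Cd44: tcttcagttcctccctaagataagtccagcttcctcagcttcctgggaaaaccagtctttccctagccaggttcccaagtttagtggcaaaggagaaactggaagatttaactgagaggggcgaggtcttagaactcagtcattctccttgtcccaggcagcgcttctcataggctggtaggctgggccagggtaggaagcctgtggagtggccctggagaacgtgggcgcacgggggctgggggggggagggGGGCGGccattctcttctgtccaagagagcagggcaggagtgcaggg

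The GC box was found in all 4 of these windows, beginning at base -114 from the start site in Itga4, at -149 and -6 in Itga5 (both as the reverse complement), at -151 in Itgb1 and at 3 in Cd44, with the start site as base 0. It is also held by 35.7% of the 32851 promoters of that length in the table. Itga4 held 1 RUNX match on the reverse strand, beginning at -60, a motif held by 16.8% of promoters. No match to ETS (16.9% of promoters), AP-1 (7.8%), STAT (8.3%), E2F (5.2%), MYC (7.2%) or TATA (13.6%) letters lay in any of the 5 windows, that of Itgb7 held none of the 8 motifs, and no matches overlapped. The windows differed in CpG content, with 27 CpG sites in Itgb1, 13 in Itga5, 10 in Itga4, 6 in Cd44 and 5 in Itgb7, against a median of 7 over all promoters.

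None of the 9 genes passed the edgeR test between KO and WT. Itga5, Itgal and Itgb1 lay lower in all 3 KO lines than in any WT line, Cd44 lay higher in all 3, and the other 5 overlapped. For Itga4, Selplg and Itgb7 the size or direction of the difference depended on KO2. The log2 fold changes of Itga6 (-0.28 to -0.51), Itgb1 (-0.39 to -0.25) and Itga5 (-3.14 to -2.67) also moved without KO2, keeping their direction.

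Itgb1 (chromosome 8, 128685654 to 128733579, GRCm38), the common beta chain, lay at 289.4, 210.3 and 291.7 CPM in the KO lines, against 373.4, 306.8 and 360.0 CPM in the WT lines. The 3 KO lines lay below the 3 WT lines, and within each group the line numbered 2 was the lowest. The means were 263.8 ± 46.3 CPM in KO and 346.7 ± 35.2 CPM in WT (SD, n = 3 each), a log2 fold change of -0.39 ± 0.15 SE (95% interval -0.77 to -0.01, edgeR adjusted p = 0.529, unadjusted 0.0440). Without KO2 the log2 fold change was -0.25 (edgeR adjusted p = 0.254). On library totals alone the groups still did not overlap, but KO3 at 302.2 CPM and WT2 at 302.3 CPM were then level.

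Itga4 (chromosome 2, 79255426 to 79333114), the alpha chain of the VCAM receptor, lay at 431.5, 927.8 and 271.8 CPM in the KO lines, against 298.2, 399.9 and 302.6 CPM in the WT lines. KO2 was 2.15 times the next highest line, whereas KO3 was the lowest of all 6, so the groups overlapped. edgeR put the log2 fold change at 0.71 ± 0.46 SE (95% interval -0.42 to 1.83, adjusted p = 0.650), and 0.08 without KO2 (edgeR adjusted p = 0.863). Its exons share bases with Cerkl on the opposite strand, and no source used here gives the strand setting of the counting. Cerkl had 2.97 CPM in KO2 and 5.32 to 7.94 CPM in the other lines, far below Itga4 and lowest where Itga4 was highest.

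Itga5 (chromosome 15, 103344286 to 103366791), the alpha chain of the fibronectin receptor, was scarce in every line. It had 9, 1 and 4 counts in the KO lines, against 43, 20 and 75 counts in the WT lines, or 0.494, 0.0512 and 0.189 CPM in KO and 1.79, 1.06 and 3.71 CPM in WT. The KO lines lay below the WT lines without overlap, and the summed counts, 14 in KO and 138 in WT, gave a scaled ratio of 0.1085 with an exact 95% interval of 0.0578 to 0.188 that covers counting error only. edgeR put the log2 fold change at -3.14 ± 0.87 SE (95% interval -5.29 to -0.99, adjusted p = 0.479, unadjusted 0.0120). DESeq2 gave an adjusted p of 0.0604, and 0.0484 without KO2, a call that edgeR without KO2 did not make (adjusted p = 0.208). Itga5 passed the filter on low counts through the WT lines, where it is high, and no count over genes that passed is taken as support for it.

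Itga6 (chromosome 2, 71786886 to 71858427), the alpha chain of the laminin receptor, lay at 49.7, 95.1 and 74.5 CPM in the KO lines, against 102.6, 79.4 and 84.8 CPM in the WT lines. KO1 was the lowest line, KO3 lay under the WT lines and KO2 lay among them, so the groups overlapped. edgeR put the log2 fold change at -0.28 ± 0.25 SE (95% interval -0.90 to 0.33, adjusted p = 0.745), -0.07 without KO1 and -0.51 without KO2 (edgeR adjusted p = 0.894 and 0.266).

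**Figure D2:**
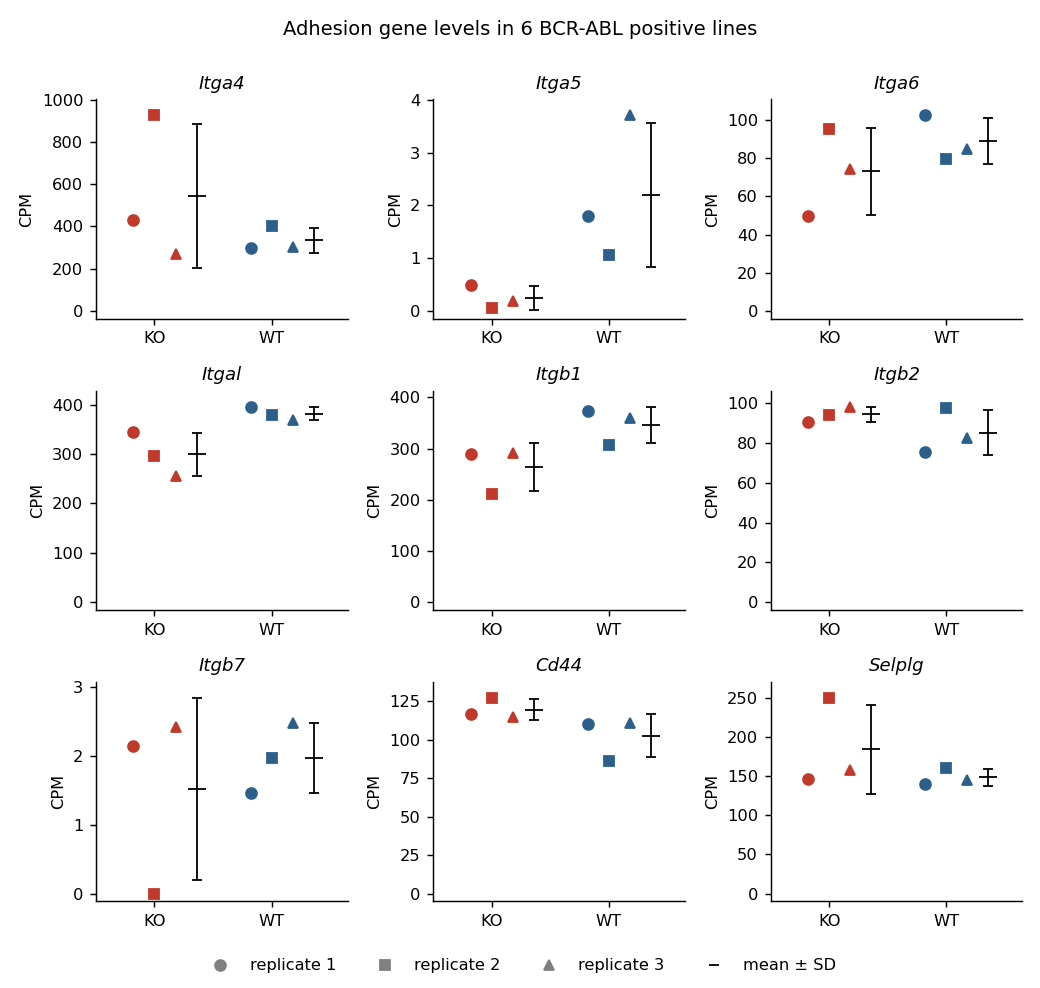
TMM-scaled CPM of each of the 9 genes in each library, KO in red on the left and WT in blue on the right, with circle, square and triangle for replicates 1, 2 and 3 and the bar giving mean ± SD (n = 3). Itga5, Itgal and Itgb1 have all KO points under all WT points, Cd44 has all KO points above, and the KO2 squares stand apart in Itga4 (927.8 CPM), Selplg (249.5 CPM) and Itgb7 (0 CPM).

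The chains of LFA differed in their pattern. Itgal (chromosome 7, 127296139 to 127335137), the alpha chain, lay at 345.1, 296.7 and 256.7 CPM in the KO lines, against 396.5, 379.4 and 369.9 CPM in the WT lines. All KO lines lay below all WT lines, and KO3 was the lowest line. The means were 299.5 ± 44.3 CPM in KO and 381.9 ± 13.5 CPM in WT (SD, n = 3 each), a log2 fold change of -0.35 ± 0.12 SE (95% interval -0.64 to -0.06, edgeR adjusted p = 0.495, unadjusted 0.0242). Without KO2 it was -0.34, so that KO2 did not set its size.

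Itgb2 (chromosome 10, 77530329 to 77565708), the beta chain of LFA, lay at 90.6, 94.1 and 98.3 CPM in the KO lines, against 75.4, 97.7 and 82.4 CPM in the WT lines. WT2 lay within the KO range and the other WT lines below it. edgeR put the log2 fold change at 0.15 ± 0.11 SE (95% interval -0.12 to 0.42, adjusted p = 0.693), 0.16 without KO2 and 0.26 without WT2 (edgeR adjusted p = 0.499 and 0.836).

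Itgb7 (chromosome 15, 102215994 to 102233405), the partner of alpha-4 in the gut homing receptor, had 2.14, 0 and 2.41 CPM in the KO lines, against 1.46, 1.97 and 2.47 CPM in the WT lines. KO2 had 0 counts, where 3 counts would be 0.154 CPM, so that against that floor Itgb7 was at least 9.51-fold lower in KO2 than in the lowest other line, WT1. KO1 and KO3 lay within the WT range. edgeR put the log2 fold change at -0.37 ± 1.23 SE (95% interval -3.42 to 2.68, adjusted p = 0.943), and it was 0.22 without KO2.

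Cd44 (chromosome 2, 102811141 to 102901669), the hyaluronan receptor, lay at 117.1, 127.3 and 114.7 CPM in the KO lines, against 110.1, 86.4 and 111.0 CPM in the WT lines. The KO lines lay above the WT lines, KO3 by only a few CPM above WT3. The means were 119.7 ± 6.67 CPM in KO and 102.5 ± 14.0 CPM in WT (SD, n = 3 each), a log2 fold change of 0.22 ± 0.12 SE (95% interval -0.06 to 0.51, edgeR adjusted p = 0.587). Without WT2, the lowest line, it was 0.12, and without KO2 and WT2 it was 0.07 (edgeR adjusted p = 0.838 and 0.501). Counts per gene do not show which of the many splice forms of Cd44 was made.

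Selplg (chromosome 5, 113817798 to 113832528), the selectin ligand, lay at 145.9, 249.5 and 157.5 CPM in the KO lines, against 139.2, 160.4 and 145.0 CPM in the WT lines. KO2 was 1.56 times the next highest line, and KO1 and KO3 lay within the WT range. edgeR put the log2 fold change at 0.32 ± 0.22 SE (95% interval -0.23 to 0.86, adjusted p = 0.668), and 0.04 without KO2 (edgeR adjusted p = 0.810).

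Over the 9 genes edgeR's quasi-likelihood test called 0 at an adjusted p of 0.05, as it called 0.00% of the 10896 genes tested, and 3 (Itga5, Itgal and Itgb1) had an unadjusted p under 0.05 with a lower level in KO, where 5.10% of tested genes did. None had such a p with a higher level in KO, where 4.35% of tested genes did, and 9.45% did in either direction. DESeq2 called 0 of the 9 and 1.94% of the genes to which it gave an adjusted p, and limma-voom called 0. Without KO2 DESeq2 called 1, Itga5, against 5.95% of genes. All KO lines lay below all WT lines in 3 of the 9 genes, against 11.0% of genes tested, and above them in 1 of the 9, against 8.53%. Itga5, which passed the low-count filter through the WT lines, is among the 3 here and among the 3 by unadjusted p. Neither count is support for it. The 9 genes were chosen with earlier results of these data known, so neither count is support for a change in the 9 as a group. The median log2 fold change was -0.28 over the 9 genes and 0.015 over all genes tested, and without KO2 the median of the 9 was 0.04. The p-values measure the spread between libraries, 1 per line, in which differences between clones and between cultures cannot be told apart. The labels do not say how many cultures each library stands for.

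**Figure D3:**
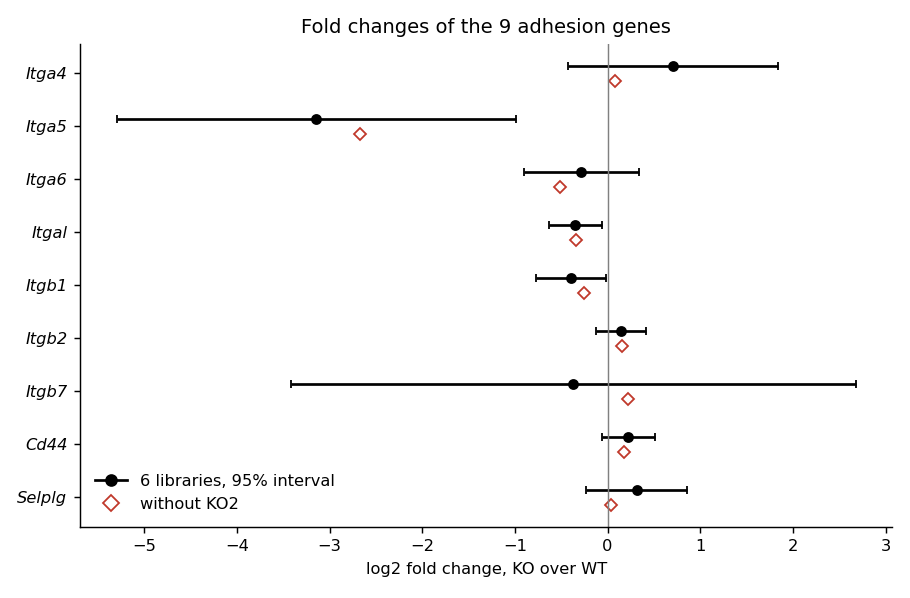
Log2 fold change of KO over WT from edgeR for the 9 genes, with black circles and bars for the estimate and 95% interval over 6 libraries and open red diamonds for the estimate without KO2. The diamonds of Itga4 (0.08) and Selplg (0.04) lie near 0 and that of Itgb7 (0.22) lies across it, whereas those of Itga5 (-2.67), Itgal (-0.34) and Itgb1 (-0.25) stay to the left.

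KO2 was the highest of the 6 libraries in 3 of the 9 genes (Itga4, Cd44 and Selplg), against 31.0% of genes tested, and the lowest in 3 (Itga5, Itgb1 and Itgb7), against 33.6%, so the 9 genes set KO2 apart about as often as genes in general do. The medians of the expressed genes around them, those of at least 5 CPM, lay near 0 in KO2, which does not show how each neighbour behaved. Against the WT mean Itga4 was higher by 1.49 on the log2 CPM scale in KO2, while the median of the 16 expressed genes within 5 Mb was 0.03. Itga5 and Itgb7 lie inside each other's window on distal chromosome 15, and both were low in KO2, at -3.76 and -4.36 on that scale, which adds a prior count of 2 and so understates changes of low genes. The medians of their 52 and 60 neighbours, in windows that overlap, were 0.05 and 0.07. Selplg was at 0.75 in KO2 and its 70 neighbours at 0.04. Itgb1 was at -0.72 in KO2 and its 19 neighbours at -0.06. Over all 9 genes and the 3 KO lines the neighbour medians lay between -0.15 and 0.07. The neighbours were looked at after the values of the 9 genes had been seen, and no test was made on them.

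**Figure D4:**
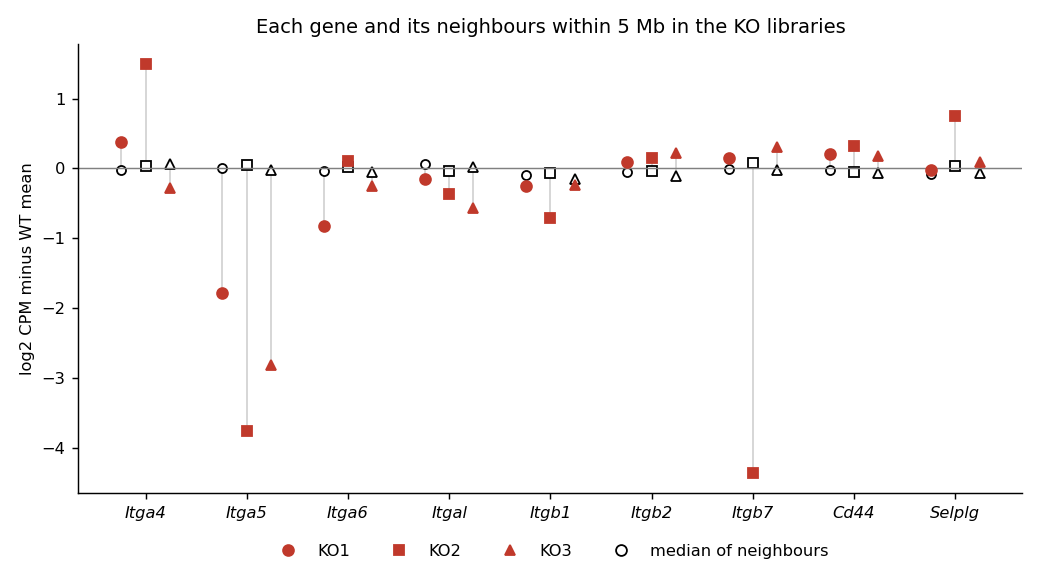
Log2 CPM minus the mean of the 3 WT libraries in KO1, KO2 and KO3 (circle, square and triangle), filled red for each gene and open black for the median of expressed genes within 5 Mb of it. The open symbols stay between -0.15 and 0.07, whereas the red squares of KO2 reach 1.49 for Itga4, 0.75 for Selplg, -3.76 for Itga5 and -4.36 for Itgb7.

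Set beside each other per exon length, the chains varied in their balance from line to line. Among the 3 alpha chains, Itga4 made up 84.6, 86.3 and 70.1% of the summed level in the KO lines, against 64.5, 76.0 and 68.1% in the WT lines. Itga6 made up 15.1, 13.7 and 29.8% in KO and 34.4, 23.4 and 29.6% in WT. KO3 and WT3 were alike in both, and the groups overlapped. Itga5 was at most 0.275% of the sum in KO, reached in KO1, and between 0.574 and 2.37% in WT.

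Among the 3 beta chains, Itgb1 made up 70.0, 62.6 and 68.4% in the KO lines, against 78.4, 69.7 and 76.0% in the WT lines. Itgb2 made up nearly all the rest, 29.3 to 37.4% in KO and 21.2 to 29.7% in WT, and Itgb7 was under 1% in every line. The ratio of Itgal to Itgb2 per length was 1.77, 1.47 and 1.21 in the KO lines, against 2.44, 1.80 and 2.09 in the WT lines, so that the groups did not overlap but KO1 and WT2 nearly touched. The ratio of Itga4 to Itgb1 per length was 0.435, 1.29 and 0.272 in KO and 0.233, 0.381 and 0.245 in WT, and KO2 was the one line with more Itga4 than Itgb1. These shares and ratios are of RNA, depend on the exon length used, combine values already given and were not tested.

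**Figure D5:**
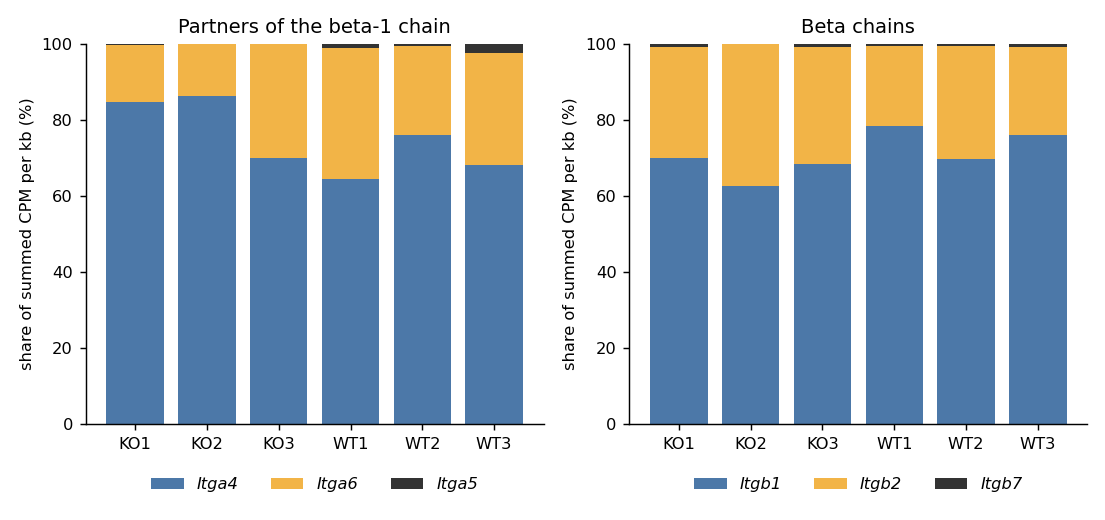
Share of each chain in the summed CPM per kb of exon, in percent, for 3 alpha chains that pair with beta-1 (left panel) and 3 beta chains (right panel) in each library. Itga4 is the largest alpha share (64.5 to 86.3%) and Itgb1 the largest beta share (62.6 to 78.4%) in all 6 lines, and the dark bands of Itga5 and Itgb7 are thin.

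No gene of the wider adhesion machinery passed the edgeR test either. Of 127 genes on 6 lists, 126 had a row and 85 were tested, and edgeR called 0, with 4 at an unadjusted p under 0.05 (1 higher and 3 lower in KO), where 9.45% of all genes tested had such a p (4.35% higher and 5.10% lower). DESeq2 called 1 of them, St3gal6, where it called 1.94% of genes. All KO lines lay above all WT lines in 3 of the 85 and below them in 11, against the 8.53% and 11.0% of all genes tested. Their median log2 fold change was -0.005, against 0.015 over all genes tested, and without KO2 these were -0.036 and 0.008. The list medians given below are over all 6 libraries. Without KO2 several changed sign, to -0.10 for the adhesion complex and -0.002 for selectin ligands. Those of the immunoglobulin family and of the partners of CD44 and PSGL turned to 0.06 and 0.03.

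Among genes that make or carry selectin ligands (15 tested, 9 positive and 6 negative, median 0.09), St3gal6, a sialyltransferase that helps to build selectin ligands, lay at 128.2, 177.7 and 145.8 CPM in the KO lines, against 98.9, 96.7 and 113.5 CPM in the WT lines. All KO lines lay above all WT lines (log2 fold change 0.55 ± 0.14 SE, edgeR adjusted p = 0.479, DESeq2 adjusted p = 0.0401, and 0.0175 in DESeq2 without KO2). St3gal4, a related enzyme, had a log2 fold change of -0.19, and C1galt1 and its chaperone C1galt1c1, which build the core of mucin sugars, had 0.10 and 0.18 (edgeR adjusted p from 0.578 to 0.698).

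Among genes of the adhesion complex below integrins (22 tested, 12 positive and 10 negative, median 0.05), Pxn, the scaffold paxillin, lay at 94.3, 58.7 and 89.0 CPM in the KO lines, against 133.4, 110.5 and 140.8 CPM in the WT lines. The groups did not overlap (log2 fold change -0.67 ± 0.20 SE, edgeR adjusted p = 0.482, DESeq2 adjusted p = 0.0939), and DESeq2 without KO2 called it (adjusted p = 0.0123). Flna, an actin crosslinker that binds beta tails, was at 514.1 ± 27.4 CPM in KO and 589.1 ± 37.3 CPM in WT (log2 fold change -0.20), Vcl, vinculin, at 103.2 ± 22.5 CPM in KO and 131.7 ± 9.64 CPM in WT (-0.35), and Tns3, a tensin, at 115.7 ± 14.0 CPM in KO and 137.1 ± 6.60 CPM in WT (-0.24; SD, n = 3 each). The edgeR adjusted p of these 3 ran from 0.524 to 0.558. For Vcl the groups overlapped, KO2 at 128.3 CPM lying above WT2 at 121.1 CPM. DESeq2 gave Vcl an adjusted p of 0.482 with all libraries and called it only without KO2 (adjusted p = 0.000298).

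Of genes that act on integrins from inside the cell 18 were tested (6 positive and 12 negative, median -0.03). Rows repeat the symbol Itgb1bp1, whose product binds the beta-1 tail, and only the row with the most counts was used. That row lay at 37.6 ± 1.90 CPM in KO and 45.1 ± 1.82 CPM in WT (log2 fold change -0.26, edgeR adjusted p = 0.492). Rapgef1, an exchange factor for RAP proteins, lay at 311.8 ± 9.67 CPM in KO and 331.6 ± 2.30 CPM in WT (-0.09). Itgb1bp2 had 0.61 and Rap1gap, which turns RAP proteins off, had 1.46, both at 9.01 CPM or less in every line (edgeR adjusted p from 0.602 to 0.624 for these 3). Rap1gap was highest in KO2, at 9.01 CPM, and its log2 fold change was 0.49 without KO2.

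Other integrin chains (7 of 19 tested) included Itgav, which pairs with beta-1 among others, at 47.6 ± 1.80 CPM in KO and 43.5 ± 4.54 CPM in WT, and Itgb4, the other partner of alpha-6, at 0.956 ± 0.668 CPM in KO and 2.59 ± 0.227 CPM in WT (log2 fold change -1.43, edgeR adjusted p = 0.558). Itgam is the alpha chain of the myeloid integrin that shares beta-2 with LFA. It lay at 28.9, 0.256 and 4.73 CPM in the KO lines, against 4.76, 1.17 and 3.41 CPM in the WT lines. KO1 alone was high (log2 fold change 1.85, edgeR adjusted p = 0.707). DESeq2 gave Itgam an adjusted p of 0.630 with all libraries and called it only without KO2 (2.43, adjusted p = 0.0480). Itga2b, the platelet chain, had a log2 fold change of 0.68, and the list a median of 0.30. Of receptors and ligands of the immunoglobulin family and other adhesion receptors 11 were tested (4 positive, 7 negative, median -0.05). Cd81, a tetraspanin, lay at 150.4 ± 26.4 CPM in KO and 188.6 ± 11.2 CPM in WT without overlap (-0.33, edgeR adjusted p = 0.534). Bsg (-0.16), Icam1 (0.24) and Pecam1 (0.33) were the others with the smallest p on that list. The counter-receptors Vcam1 and Madcam1 had 0 counts in all 6 libraries. Of partners of CD44 and PSGL and genes of hyaluronan 12 were tested (6 positive, 6 negative, median -0.03). Rdx, radixin, which ties CD44 and PSGL to actin, lay at 322.8 ± 27.2 CPM in KO and 377.1 ± 28.6 CPM in WT, and Rac2, a small GTPase of blood cells, at 774.1 ± 79.3 CPM in KO and 884.0 ± 19.3 CPM in WT. The KO and WT lines of neither overlapped, although KO1 at 343.6 CPM and WT2 at 344.8 CPM of Rdx were close. Their log2 fold changes were -0.22 and -0.19 (edgeR adjusted p = 0.532 and 0.554). Msn (-0.13) and Hmmr (0.09) followed.

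The gene most like each of the 9 was sought among the 8889 tested genes of at least 5 CPM, as the one whose log2 CPM, centred on its own mean, deviated least at its worst library. The match was close for Selplg and Map3k14 (largest deviation 0.053), Itgb2 and Cpsf3l (0.053), Itgb1 and Tnks2 (0.056), Cd44 and Cybb (0.061) and Itgal and Ing5 (0.072). Tnks2 lay at 372.6, 284.4 and 386.1 CPM in the KO lines, against 513.5, 413.5 and 485.2 CPM in the WT lines. The match was looser for Itga6 and Dnajb9 (0.175) and Itga4 and Nphp4 (0.189). For Itgb7 the nearest gene, Lgals1 (0.407), lay at 40.8 CPM in KO2 and at 565.0 to 705.2 CPM in the other lines. For Itga5 the nearest, Tmem176b (0.870), lay at 4.17, 0.512 and 2.84 CPM in the KO lines, against 22.4, 5.01 and 18.5 CPM in the WT lines. None of the nearest genes was one of the 9, and the likeness was not tested.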

How the data were processed

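RNA of 6 BCR-ABL positive mouse lines was prepared with a TruSeq RNA kit, per the labels' protocols. The authors deposited raw counts per gene symbol, without normalization, 1 column per library. The submitters' processing notes name GRCm38 and the tools STAR, Trim Galore and DESeq2, with no versions. No source used here gives the counting program, annotation or strand setting. The table had 25965 rows, 11635 of them at 0 in all libraries. Every column carried the description label of 1 sample.

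Counts were tested in edgeR 4.0.16 (R 4.3.3) over all 6 libraries, with TMM scaling, filterByExpr (10896 genes), a robust quasi-likelihood fit, and Benjamini-Hochberg adjustment over all genes tested, two-sided. The standard error is the log2 fold change divided by the root of the F statistic. The steps were checked on simulated data. Levels are CPM on TMM-scaled totals. Per-length levels used the union of exons in GENCODE M21 (GRCm38). Locations are from RefSeq. Alternatives were RLE factors, library totals, DESeq2 1.42.0, limma-voom (limma 3.58.1), other filters, non-robust estimates, a replicate block and the omission of libraries. DESeq2 without KO2 was added after the data were seen.

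The 9 genes, the other lists and the design were chosen with earlier results of these data known. The genes named are all 9, Cdk6, up to 4 per list by smallest p, and the gene most like each of the 9. Cerkl, Lck, Klrb1c, Itgb3, Vcam1, Madcam1 and the markers at 0 were named after their values were seen. The groups share replicate numbers, and same-numbered lines deviated together from their group means (Pearson correlation over genes): 0.326 for KO1 and WT1, 0.643 for KO2 and WT2 and 0.457 for KO3 and WT3, each above 0.1, though KO1 correlated more with WT3 (0.361). KO3 and WT1, which differ in number, also lay above 0.1 (0.406). Line 2 of either group correlated at -0.452 to -0.58 with lines 1 and 3 of the other group. Deviations from a mean of 3 lines sum to 0, so these values are bound to each other. A value above 0.1 therefore cannot show that lines pair by number, and this holds for KO2 and WT2 too. The labels name no shared culture or day. Depth was 17859519 to 24108563 counts per library. The exact interval of the Itga5 ratio and the floors of 3 counts cover counting error only. The edgeR intervals also include the spread between libraries.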

Additional observations from a re-analysis of the deposited data

How the results depend on the processing

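Over all 6 libraries edgeR called 0 genes under every scaling and filter, without robust estimates and with a replicate block, and limma-voom called 0. The block fit called 0 of the 9 genes and 0 of the other adhesion genes and changed no call (Itgb1 had a log2 fold change of -0.40 with it, Itga4 of 0.53). DESeq2 called 218 of the 14330 genes it fitted (1.94% of those with an adjusted p). Among them were 0 of the 9 and 1 of 110 other adhesion genes (St3gal6). Without KO2 it called 684 of 14115 genes (5.95% of those with an adjusted p). Among these were 1 of the 9 (Itga5) and 4 of 108 other adhesion genes (St3gal6, Pxn, Vcl and Itgam), no larger a share than over all genes. Leaving out any 1 library in edgeR left all 3 counts at 0, so that across these fits they ran from 0 to 684, from 0 to 1 and from 0 to 4. Leaving out KO2 and WT2 together also left 0. The direction turned for Itgb7 alone among the 9: leaving out 1 library its log2 fold change ran from -0.87 to 0.22, being 0.22 without KO2 in edgeR and in DESeq2 and 0.22 without KO2 and WT2, while limma-voom gave -1.90. Cdk6 ran from -0.22 (without KO2) to 0.31, and was at -0.24 without KO2 and WT2. The cause was not tested, beyond the 0 counts of Itgb7 in KO2. Ranges over all alternatives were -1.90 to 0.22 for Itgb7, -0.59 to -0.07 for Itga6, 0.07 to 0.27 for Itgb2, -4.10 to -2.52 for Itga5, -0.46 to -0.25 for Itgal, -0.47 to -0.25 for Itgb1, 0.07 to 0.29 for Cd44, 0.08 to 1.03 for Itga4 and 0.04 to 0.46 for Selplg. Depth limits Itga5 and Itgb7, which had at most 75 counts in a library.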

Other observations

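Several integrin chains outside the 9 genes were high in 1 or 2 lines. Where 3 values are given for a group, they are those of lines 1, 2 and 3. These genes were picked after their values had been seen, and no test was made. Itga1, the alpha chain of a collagen receptor that uses beta-1, lay at 0, 23.9 and 0.0473 CPM in the KO lines, against 0, 1.54 and 0 CPM in the WT lines. Itgb3, the platelet and osteoclast beta chain, lay at 2.64, 21.8 and 0.331 CPM in the KO lines, against 0.793, 8.57 and 0.495 CPM in the WT lines. Itga9, an alpha chain related to Itga4, lay at 0.0549, 8.60 and 0 CPM in the KO lines, against 0.417, 2.66 and 0 CPM in the WT lines. In each of these KO2 was highest and WT2 second, across the genotype labels. Other chains on the same list went the other way. Itga8, Itga10 and Itgam were lowest in KO2 and second lowest in WT2. Itga8, for example, lay at 1.04, 0 and 1.56 CPM in the KO lines, against 2.55, 0.0532 and 2.87 CPM in the WT lines. Over all genes tested KO2 was the highest library in 31.0% and the lowest in 33.6%, so these patterns are not particular to integrins.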
